A study of Mus musculus with 20 samples.

Results

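The question examined here is how much the hypothalamic transcriptome of obese mice differed between 4 days and 1 day of vehicle treatment, with no drug given. Of the 20 arrays in the series, 6 entered the comparison, 3 from vehicle mice taken at 4 days and 3 from vehicle mice taken at 1 day, chosen by their titles. The other 14 arrays, 3 of vehicle at 6 h and 11 of celastrol (4 at 6 h, 4 at 1 day, 3 at 4 days), helped to estimate the spread of each gene and served as a second look at the same time interval. All mice were male C57BL/6J, an inbred strain without an engineered allele. They were started at 4 weeks of age on a diet with 45% fat, kept on it for 16 weeks, and are therefore diet-induced obese. Vehicle mice received dimethyl sulfoxide (DMSO), the solvent of the drug, into the peritoneum at 25 µl per day. Celastrol mice received celastrol, a plant triterpenoid, by the same route, and the labels attach its dose to the 6 h time alone. The titles mark replicates as biological. The labels do not state whether tissue was pooled, how many injections the 1 day mice had received, the clock time of collection or a batch. The p-values therefore measure the spread between these samples.

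The hypothalamus holds neurons that set food intake, body temperature, water balance, sleep and the output of the pituitary gland. Arcuate neurons that make neuropeptide Y promote feeding, and those that make proopiomelanocortin and the CART peptide restrain it, both under the influence of leptin from fat. Repeated handling and injection are known to engage the stress axis, in which corticotropin-releasing hormone leads to the release of corticosterone, a hormone that acts on genes such as Fkbp5 and Sgk1. A vehicle group followed over time carries the procedures, the passing days and the variation between arrays together, and these cannot be told apart here.

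Values are log2 intensities of Affymetrix mouse gene arrays normalized by the authors with RMA, and a difference is 4 days minus 1 day on the log2 scale. Each gene was read from its brightest probe set with a single symbol, and 14129 genes were bright enough to be tested. The tissue label was checked against hypothalamic peptides. Pmch, the melanin-concentrating hormone of the lateral hypothalamus, lay at 12.94 to 13.04 on the 6 arrays. Hcrt, which encodes orexin, lay at 12.60 to 12.84, and Oxt, oxytocin of the magnocellular nuclei, at 11.31 to 11.96. All 3 were bright on every array. Arrays correlated between 0.994 and 0.998 with each other and no pair held identical values. Among the vehicle arrays, replicate 3 of the 1 day group and replicate 3 of the 6 h group deviated most. On the first principal component of deviations from group means they had 9.61 and 11.4, and the remaining 18 arrays ranged from -6.13 to 5.32.

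No gene of the 14129 passed an adjusted p of 0.05 between the 2 vehicle groups (limma, 0% called). At an unadjusted p under 0.05 there were 1041 genes, 7.37% of those tested, of which 497 were higher at 4 days (3.52%) and 544 lower (3.85%). When every array was centred on its own median, the same split was 645 higher and 448 lower. The 3 arrays of one group all lay above or below the 3 of the other in 2044 genes, 14.5% of those tested. The median difference over all genes was -0.0021, and 48.9% of all genes were higher at 4 days. The lowest adjusted p was 0.0802, shared by 4 genes, namely Scarna17, Ndufa9, Havcr2 and a predicted gene.

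The arrays bounded what could have gone unseen. Standard errors had a median of 0.065 over genes, and the 95% interval extended a median of 0.14 to each side. For 14080 genes, 99.7% of those tested, the 95% interval left out a 1.5-fold difference in either direction, and for the remaining 49 it reached that far. One gene, Cga, differed by at least 1.5-fold. Absent a passing gene, the values below describe levels and intervals, and no direction of a single gene in the vehicle comparison is claimed as a change.

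Among the 12 genes with the smallest p in the upward direction, Scarna17 came first. It is a small Cajal body RNA, one of the guides for modification of spliceosomal RNAs. Its vehicle values at 1 day were 11.69, 11.56 and 11.43, and at 4 days 11.94, 11.91 and 11.90. All 4 day arrays lay above all 1 day arrays. The means were 11.56 ± 0.13 and 11.92 ± 0.024 (SD, n = 3 each), a difference of 0.36 ± 0.064 (SE), or 1.28-fold, with an adjusted p of 0.0802.

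A pair of mitochondrial genes stood in the same set. Uqcc2 is an assembly factor of respiratory complex III. It read 11.60, 11.48 and 11.53 at 1 day and 11.72, 11.75 and 11.87 at 4 days. The groups did not overlap, and the difference was 0.25 ± 0.054 (adjusted p = 0.282). Smdt1 encodes EMRE, a small subunit of the mitochondrial calcium uniporter. It read 12.05, 12.03 and 12.05 at 1 day and 12.22, 12.23 and 12.27 at 4 days. Again no array overlapped, and the difference was 0.20 ± 0.053 (adjusted p = 0.489).

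The other upward genes were Cep135 of the centriole (0.29), the serine protease-like Prss35 (0.45), the lysosomal sulfatase Galns (0.30), Cyb5d1 (0.25), the lipoxygenase Alox12b (0.23) and Usf3 (0.17). They also held the aquaporin Aqp11 (0.20), the elongin subunit Elob (0.20) and the general transcription factor subunit Gtf2a1 (0.15). All 12 had adjusted p between 0.0802 and 0.489. Prss35 had the largest difference of the 12, 1.36-fold. Its 1 day values were 6.96, 6.94 and 7.35 against 7.59, 7.57 and 7.42 at 4 days, so that the third 1 day array lay close to the lowest 4 day array.

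In the downward direction Ndufa9 and Havcr2 came first among named genes. Ndufa9 encodes a subunit of respiratory complex I. It read 11.33, 11.41 and 11.37 at 1 day and 11.08, 11.16 and 11.14 at 4 days. The lowest 1 day array stood above the highest 4 day array, and the means were 11.37 ± 0.037 and 11.13 ± 0.040 (SD, n = 3 each). The difference was -0.24 ± 0.043 (SE), 1.18-fold, with an adjusted p of 0.0802. Havcr2 encodes the immune receptor TIM-3, made in brain mainly by microglia. It read 7.66, 7.54 and 7.69 at 1 day and 7.31, 7.33 and 7.28 at 4 days. These values lie near the dim end of the array, whose filter stood at 7.04, and the difference was -0.33 ± 0.058 (adjusted p = 0.0802).

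Ddx6 and Ywhah were bright genes in the downward set. Ddx6 is an RNA helicase of cytoplasmic mRNA decay and storage granules. It read 12.79, 12.78 and 12.72 at 1 day against 12.58, 12.42 and 12.43 at 4 days, a difference of -0.28 ± 0.063 (adjusted p = 0.282). Ywhah encodes the eta form of the 14-3-3 adaptor proteins. It read 13.79, 13.80 and 13.83 at 1 day and 13.64, 13.55 and 13.58 at 4 days, a difference of -0.21 ± 0.049 (adjusted p = 0.282). In neither gene did the groups overlap. Sfn, another 14-3-3 protein known from epithelia, differed by -0.27. The rest were the adhesion molecule Nectin2 (-0.30), the transcription factor Foxf1 (-0.28), Fam98c (-0.28), Tmem114 (-0.31), Myadml2 (-0.33) and 2 predicted genes. Adjusted p over the 12 ran from 0.0802 to 0.294. Of the 12, 7 had a mean intensity under 8.5, against 3 of the 12 upward genes.

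**Figure D1:**
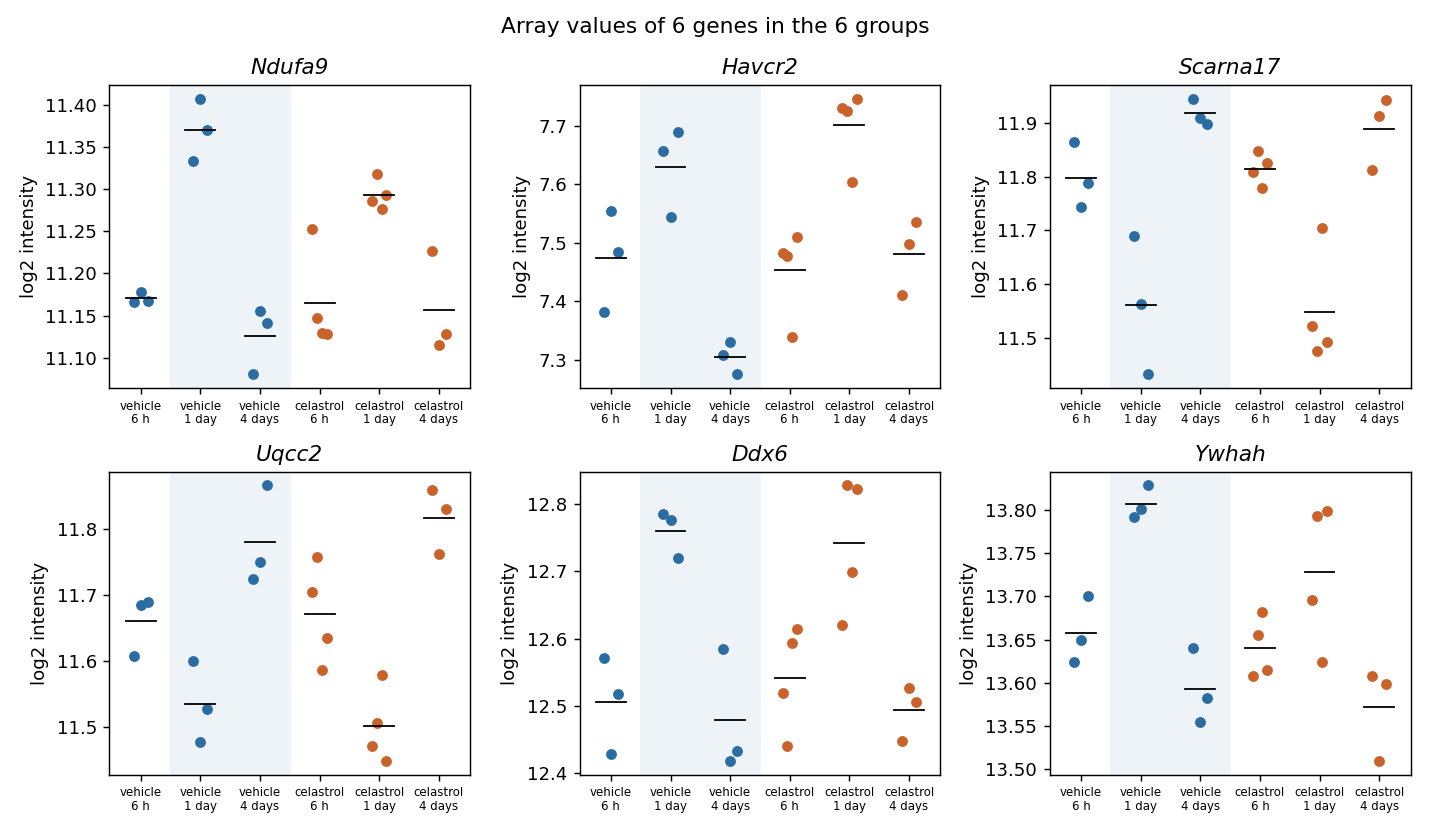
Log2 intensity (vertical axis) of 6 genes on each of the 20 arrays, by group; points are arrays, black lines are group means, blue is vehicle and orange is celastrol, and the shaded band marks the 2 vehicle groups compared. In each of the 6 genes the 3 vehicle arrays of 4 days lie wholly above or below the 3 of 1 day, and the celastrol group means differ the same way. The 6 were picked from the 24 genes with the smallest p in vehicle, and in all 24 the vehicle groups do not overlap. All 6 are also among the 30 genes called on the average of vehicle and celastrol. Their shared direction in celastrol is therefore no separate evidence. Sfn, among the 24 and not shown, differed by 0.0012 in celastrol against -0.27 in vehicle.

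The vehicle arrays at 6 h give the earlier level of these genes. Since all differences to 6 h use the same vehicle arrays, the levels are given side by side only. Ndufa9 had a 6 h mean of 11.17, Ddx6 of 12.51, Ywhah of 13.66 and Scarna17 of 11.80. In these 4 genes the 6 h mean lay between the 1 day and the 4 day mean and nearer to that of 4 days. Uqcc2 had a 6 h mean of 11.66 and Havcr2 of 7.47, about midway. Over all 14129 genes the 6 h mean was nearer to 4 days than to 1 day in 52.8%, and over the 1041 genes in 54.4%.

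Promoters of 4 of these genes are shown. They were picked from the larger number whose levels differed in the same direction in vehicle and celastrol mice, as described below. Each run holds 250 bases before and 50 after the annotated start (RefSeq, GRCm38.p6), 5′ to 3′ on the gene's strand, with a cAMP response element in capitals where one was found. Uqcc2 lies on the minus strand (chr17:27133842-27134141) and Ndufa9 on the minus strand (chr6:126849095-126849394). Smdt1 lies on the plus strand (chr15:82345796-82346095) and Ywhah on the plus strand (chr5:33018566-33018865).
Uqcc2: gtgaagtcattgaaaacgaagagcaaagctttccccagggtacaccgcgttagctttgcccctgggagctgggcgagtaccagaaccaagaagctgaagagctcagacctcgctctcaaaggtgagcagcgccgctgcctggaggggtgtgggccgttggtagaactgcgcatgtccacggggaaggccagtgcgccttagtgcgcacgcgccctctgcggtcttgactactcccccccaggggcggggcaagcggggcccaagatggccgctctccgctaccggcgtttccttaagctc
Smdt1: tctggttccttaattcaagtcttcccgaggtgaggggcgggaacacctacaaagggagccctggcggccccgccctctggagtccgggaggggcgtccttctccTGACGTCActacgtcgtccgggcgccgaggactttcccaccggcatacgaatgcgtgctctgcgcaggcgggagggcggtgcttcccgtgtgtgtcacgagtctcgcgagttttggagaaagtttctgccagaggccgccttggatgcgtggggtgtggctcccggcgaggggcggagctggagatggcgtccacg
Ndufa9: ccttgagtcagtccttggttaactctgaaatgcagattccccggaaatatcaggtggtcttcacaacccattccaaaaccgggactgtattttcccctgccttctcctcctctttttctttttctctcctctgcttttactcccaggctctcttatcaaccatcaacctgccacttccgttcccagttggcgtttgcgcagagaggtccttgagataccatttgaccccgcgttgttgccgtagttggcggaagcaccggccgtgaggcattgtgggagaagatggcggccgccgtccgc
Ywhah: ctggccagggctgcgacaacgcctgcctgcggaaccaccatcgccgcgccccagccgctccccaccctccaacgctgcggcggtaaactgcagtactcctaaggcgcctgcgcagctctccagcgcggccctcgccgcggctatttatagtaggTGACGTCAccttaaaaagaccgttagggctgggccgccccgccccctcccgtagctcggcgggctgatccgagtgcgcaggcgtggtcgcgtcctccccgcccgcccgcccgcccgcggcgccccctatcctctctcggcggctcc
These were searched on both strands for the E-box CACGTG, the cAMP response element TGACGTCA, the heat shock element pair GAANNTTC and the glucocorticoid receptor element core AGAACA. Of 32851 mouse promoters of this length, 7.15% held the E-box, 1.79% the cAMP response element, 7.86% the heat shock pair and 19% the receptor core. Of 121 promoters of the genes named by rule in this report, 11 held the E-box and 7 the cAMP response element. The heat shock pair was in 12 of the 121 and the receptor core in 13. Smdt1, higher at 4 days, and Ywhah, lower at 4 days, each held 1 cAMP response element, and Uqcc2 and Ndufa9 held none of the 4 letter patterns. A match is a run of letters and not a measured binding site.

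Of the central feeding genes, Npy, Pomc, Cartpt, Hcrt, Pmch and Lepr all had 95% intervals that included 0. Npy read 10.64, 10.53 and 10.45 at 1 day and 10.41, 10.68 and 10.61 at 4 days. The groups overlapped, and the difference was 0.026 with a 95% interval from -0.18 to 0.24. Pomc read 9.10, 8.65 and 9.02 at 1 day and 8.63, 9.08 and 8.74 at 4 days. Its difference was -0.11, with an interval from -0.41 to 0.20. Cartpt, the CART peptide gene, differed by 0.012 (interval -0.17 to 0.19), Hcrt by -0.10 (-0.34 to 0.14) and Pmch by -0.050 (-0.19 to 0.085). The leptin receptor gene Lepr differed by -0.056 (-0.20 to 0.087). Agrp was not analysed here.

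Of 13 tested genes that promote feeding, 4 were higher and 9 lower, with a median of -0.035. Npw, which encodes neuropeptide W, differed by -0.17 (adjusted p = 0.635) and the orexin receptor gene Hcrtr1 by -0.13 (adjusted p = 0.706). Of 15 genes that restrain feeding, 8 were higher and 7 lower, with a median of 0.00015. In leptin and insulin signalling 12 of 18 genes were higher and the median was 0.013. A pair of brakes on leptin signalling pointed opposite ways in that list. Socs3 read 8.20, 8.43 and 8.13 at 1 day against 7.99, 8.07 and 7.997 at 4 days, a difference of -0.24 (adjusted p = 0.593). Ptpn1, the phosphatase PTP1B, differed by 0.13 (adjusted p = 0.655). Neither passed.

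Neuroendocrine peptides had a median of -0.0084 over 16 genes, 7 of them higher. Vip, of the suprachiasmatic clock, read 7.87, 8.499 and 8.57 at 1 day and 8.61, 8.75 and 8.31 at 4 days, a difference of 0.24 with an interval from -0.15 to 0.63. The first 1 day array was low, and the other 2 overlapped the 4 day arrays. Sst, somatostatin, differed by -0.14 (-0.35 to 0.064) and Trh, thyrotropin-releasing hormone, by 0.080 (-0.10 to 0.26). Avp, vasopressin, differed by -0.0037 (-0.22 to 0.21) and Oxt by 0.12 (-0.20 to 0.43).

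The stress axis and the targets of glucocorticoids are the groups that handling would be looked for in. Of 15 tested stress axis genes 8 were higher and 7 lower, with a median of 0.0079. Crh itself was dim, at 7.26, 7.31 and 6.87 against 7.16, 6.90 and 7.16, and differed by -0.077 (interval -0.44 to 0.28). Of 19 glucocorticoid targets 10 were higher and 9 lower, with a median of 0.045 beside -0.0021 for all genes. It was 0.089 without the first 4 day array and between 0.012 and 0.022 without any one of the other 5. The celastrol median of the same list over the same interval was -0.13.

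Sgk1, the serum and glucocorticoid kinase, read 9.58, 9.68 and 9.26 at 1 day and 9.54, 9.72 and 10.01 at 4 days. The groups overlapped, with the third 1 day array lowest and the third 4 day array highest. The difference was 0.25 (interval -0.028 to 0.53, adjusted p = 0.705). Tsc22d3, which encodes the anti-inflammatory protein GILZ, did not overlap, at 9.70, 9.89 and 9.76 against 9.91, 10.04 and 10.04 (difference 0.21, adjusted p = 0.730). Klf9 differed by 0.13 (adjusted p = 0.730), Fkbp5 by 0.045 (interval -0.34 to 0.43) and Per1 by 0.047 (-0.066 to 0.16). At 6 h the vehicle mean of Sgk1 was 10.45 and of Fkbp5 9.15, against 9.51 and 8.71 at 1 day. Against 6 h the 1 day level was lower with an adjusted p of 0.0078 for Sgk1 and of 0.331 for Fkbp5, in a comparison that shares the 1 day arrays.

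Immediate early genes, which neurons switch on within minutes of activity, had 6 of 19 higher and a median of -0.018. Fos read 7.31, 7.42 and 7.56 at 1 day and 7.33, 7.24 and 7.29 at 4 days, a difference of -0.15 (interval -0.41 to 0.11). Arc, a synaptic regulator, read 8.81, 8.86 and 8.68 against 8.62, 8.57 and 8.69, a difference of -0.16 (adjusted p = 0.561). One array of each Arc group crossed the other. Circadian clock genes had 11 of 19 higher and a median of 0.022. Per3 differed by 0.11 (adjusted p = 0.640) and Per2 by 0.10 (adjusted p = 0.724), and Bhlhe40, a repressor of the clock, by -0.14 (adjusted p = 0.730).

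Interferon-stimulated genes formed the list with the lowest median of the 34, -0.087. Of its 16 tested members 14 were lower at 4 days, beside 7223 of all 14129 genes, and none passed the adjusted threshold. Ifit1, an RNA-binding antiviral protein, read 8.52, 8.48 and 9.004 at 1 day and 8.11, 8.47 and 8.31 at 4 days, a difference of -0.37 (adjusted p = 0.550). Ifit3 read 9.50, 9.50 and 9.98 against 9.42, 9.44 and 9.42, a difference of -0.23 (adjusted p = 0.696). Usp18, which removes ISG15 and dampens the interferon receptor, read 8.03, 7.83 and 8.47 against 7.76, 7.98 and 7.98, a difference of -0.21 (adjusted p = 0.748). In all 3 genes the third 1 day array was the highest of the 6, as it was for 8 of the 16 members. That array is the one that stood apart, and without it the list median was -0.056.

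Other inflammatory lists had medians below 0 as well. Of 13 tested acute phase genes and STAT3 targets 11 were lower, with a median of -0.039 beside -0.0021 for all genes. That median was -0.0077 without the first 1 day array and -0.103 without the third. Serpina3n, a protease inhibitor of reactive astrocytes, read 12.13, 11.99 and 12.16 against 11.93, 11.99 and 11.94, a difference of -0.14 (adjusted p = 0.705). Lrg1 differed by -0.24 (interval -0.69 to 0.20). NF-kB and cytokine genes had a median of -0.0088, with 4 of 11 higher. Ccl7, a monocyte chemokine near the dim end, read 7.37, 7.39 and 7.39 at 1 day and 7.18, 7.17 and 7.12 at 4 days. Its groups did not overlap, and the difference was -0.23 (adjusted p = 0.489).

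Among cell types, 13 of 15 astrocyte markers were below 0, beside 7223 of all 14129 genes. Their median was -0.048 in vehicle and -0.014 over the same interval in celastrol. Gfap, the intermediate filament of astrocytes, read 10.91, 10.48 and 10.76 at 1 day and 10.54, 10.65 and 10.44 at 4 days, a difference of -0.17 with overlapping groups (adjusted p = 0.705). Without the first 4 day array the astrocyte median was -0.019. Microglia markers split 7 to 7 with a median of 0.015, and 2 chains of complement C1q diverged within them. C1qb read 11.23, 11.21 and 11.32 against 10.81, 11.05 and 11.10, a difference of -0.27 (adjusted p = 0.544), while C1qc differed by 0.15 (adjusted p = 0.807). Myelin and oligodendrocyte markers had 12 of 16 higher and a median of 0.043, led by Cldn11 of the myelin tight junction (0.095, adjusted p = 0.720) and Mal (0.12, adjusted p = 0.730). Their median was 0.0041 without the first 1 day array and 0.080 without the third. In bulk tissue fewer cells of a type and less RNA per cell cannot be told apart.

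Neuronal markers had a median of -0.0074, with 6 of 18 higher. Tubb3, neuronal tubulin, read 10.57, 10.59 and 10.56 at 1 day and 10.80, 10.74 and 10.76 at 4 days, a difference of 0.19 without overlap (adjusted p = 0.505). Gap43, a growth cone protein, read 11.91, 11.92 and 11.91 against 11.84, 11.79 and 11.75, a difference of -0.13 in the opposite direction (adjusted p = 0.635). Endothelial markers had a median of 0.033 and mural markers of 0.025. Tanycyte and ependymal markers had a median of -0.023, and Crym, which marks tanycytes, differed by -0.17 (adjusted p = 0.605).

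No gene of the heat shock, unfolded protein, metabolic or antioxidant lists passed the adjusted threshold. Hsp90aa1, the inducible cytosolic HSP90, read 13.28, 13.37 and 13.32 at 1 day and 13.23, 13.15 and 13.11 at 4 days, a difference of -0.16 without overlap (adjusted p = 0.503). Heat shock genes as a list had 5 of 15 higher and a median of -0.014. In the unfolded protein response 7 of 20 were higher, with a median of -0.028, and the transcription factor Xbp1 differed by -0.12 (adjusted p = 0.617). NRF2 targets had a median of -0.015 (8 of 19 higher), fatty acid oxidation 0.014 (9 of 16), cholesterol synthesis 0.034 (10 of 15) and oxidative phosphorylation 0.027 (12 of 20). Acot2, a mitochondrial thioesterase, differed by -0.22 (adjusted p = 0.575).

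Markers of neighbouring tissue were read to compare the dissections. Thalamus (median -0.0047, 12 genes), striatum (0.0011, 9 genes), and cortex and hippocampus (-0.030, 9 genes) markers all had medians close to that of all genes. The mean level of a list per array had an SD of 0.095 at 1 day and 0.0097 at 4 days for thalamus. It was 0.089 and 0.028 for cortex and hippocampus, and 0.029 and 0.037 for striatum. Medians near that of all genes therefore do not show that single dissections were alike, which was not tested. Calb2, calretinin, counted among the thalamus markers, read 12.79, 12.78 and 12.80 at 1 day and 12.65, 12.58 and 12.53 at 4 days (difference -0.20, adjusted p = 0.620). Skeletal muscle markers were lower in 7 of 9, with Tnnc2 at 7.62, 7.85 and 7.17 against 7.45, 7.12 and 7.18. Choroid plexus markers had a median of -0.054, meningeal fibroblast markers of 0.056, oligodendrocyte precursors of 0.015, blood of 0.0058 and hypothalamic transcription factors of 0.0070.

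Over the 34 lists, 468 distinct genes were tested, and 20 of them (4.27%) had an unadjusted p under 0.05, beside 7.37% of all genes. Of these 20, 5 were higher and 15 lower. No list held more than 2 such genes, and 30 of the 34 medians lay between -0.05 and 0.05.

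**Figure D2:**
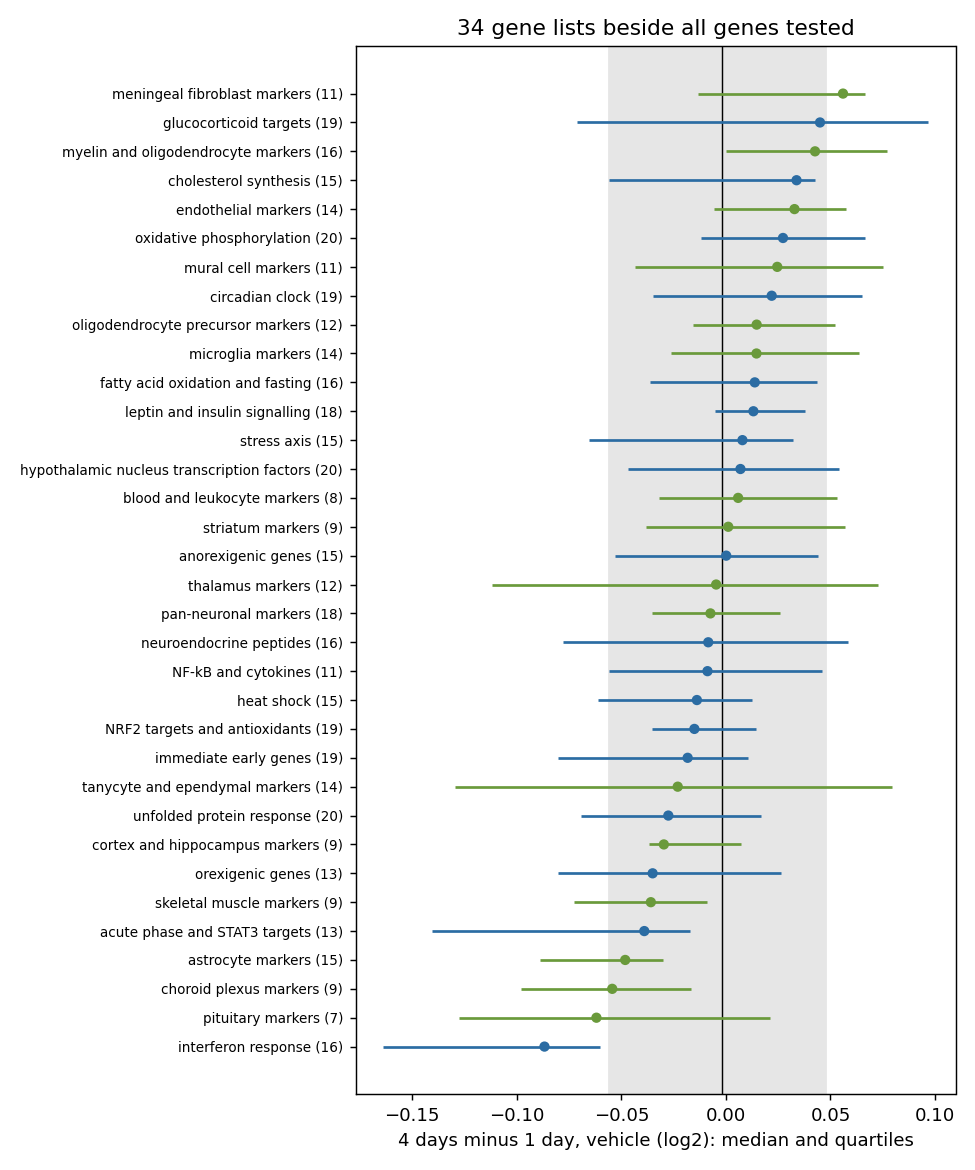
Median (points) and quartiles (bars) of the vehicle difference, 4 days minus 1 day on the log2 scale, for the tested members of 34 lists, with member counts in brackets; blue marks biology and green cell types or regions, and the black line and grey band are the median and quartiles of all 14129 genes. Most bars cross the line of all genes, and interferon response genes lie furthest below it at -0.087.

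Some large differences between the groups came from genes whose arrays disagreed within a group. Cga encodes the alpha subunit shared by the glycoprotein hormones of the pituitary, and it read 10.24, 9.32 and 7.38 at 1 day and 7.72, 10.91 and 10.34 at 4 days. One low array in each group, replicate 3 at 1 day and replicate 1 at 4 days, spread the gene over 11.5-fold among the 6 arrays. Its difference of 0.68 had an interval from -1.49 to 2.84. Cyp2f2, a cytochrome P450 known from lung airway, read 8.70, 8.31 and 6.83 at 1 day and 7.60, 8.91 and 8.64 at 4 days. The same 2 arrays were the low ones, and the spread was 4.23-fold. Gh, pituitary growth hormone, read 7.89, 7.98 and 8.66 at 1 day and 7.83, 7.69 and 7.54 at 4 days. Replicate 3 of 1 day, low in Cga, was the highest in Gh. Replicate 1 of 4 days, also low in Cga, was likewise the highest of its own group in Gh, at 7.83, though below all 3 arrays of 1 day.

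In all, 6 genes had an interval that reached a 2-fold difference, namely these 3, Lcn2, Slc6a3 and Fndc3c1, and they are named after their values were seen. Slc6a3, the dopamine transporter of midbrain and hypothalamic dopamine neurons, read 10.15, 11.41 and 10.28 at 1 day and 11.39, 10.24 and 10.85 at 4 days. The 7 tested pituitary markers had a median of -0.062, and their mean level per array ran from 8.52 to 8.93 at 1 day and from 8.40 to 8.95 at 4 days. The part of pituitary tissue in any result was not tested.

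**Figure D3:**
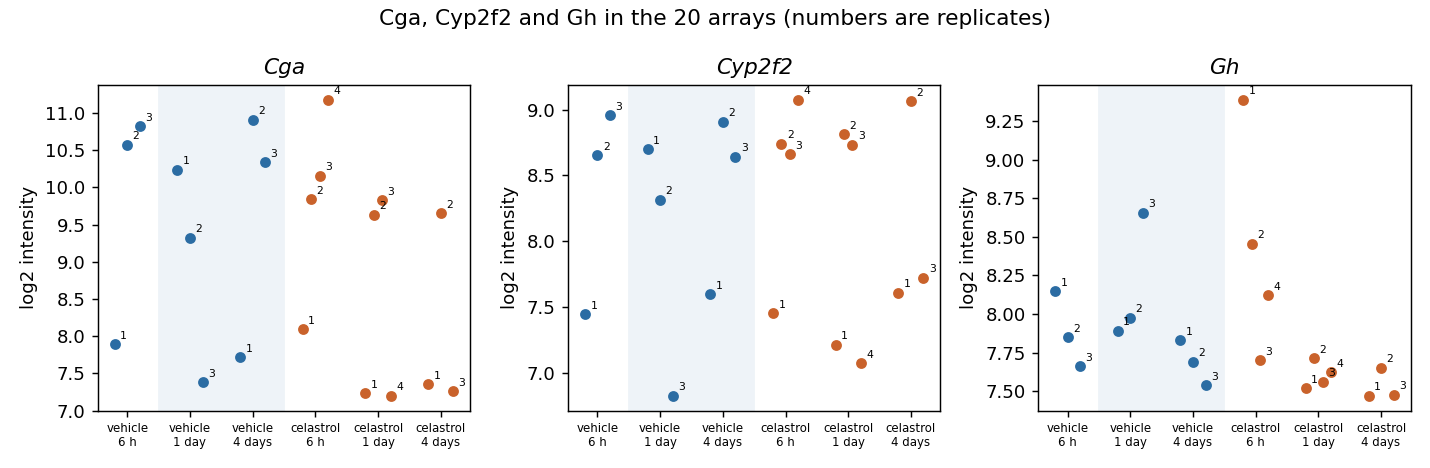
Log2 intensity of Cga, Cyp2f2 and Gh (vertical axes) on the 20 arrays by group, each point an array labelled with its replicate number, blue for vehicle, orange for celastrol and shaded for the 2 vehicle groups compared. Cga and Cyp2f2 are low on the same arrays, vehicle replicate 3 at 1 day (7.38 and 6.83) and replicate 1 at 4 days (7.72 and 7.60), and high on the other 4 vehicle arrays of these times.

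The direction of the differences varied with the brightness of the genes. Genes with a mean intensity of 7 to 7.5 had a median difference of -0.044 and those of 7.5 to 8 of -0.039, while those of 9 to 10 had 0.015 and those of 10 to 11 had 0.013. Among the brightest genes the median was 0.00050 at 11 to 12 and -0.020 at 12 to 16. At an unadjusted p under 0.05 the dimmest band held 21 higher and 93 lower genes and the next 19 and 101, against 179 higher and 72 lower at 9 to 10. At 12 to 16 there were 14 higher and 44 lower. The celastrol arrays showed -0.029 and -0.035 in the 2 dimmest bands. When the arrays were quantile normalized again, these vehicle medians were -0.0040 and -0.00088. The 25th percentile of an array's values was 7.12, 7.10 and 6.96 at 1 day and 7.05, 7.01 and 7.03 at 4 days.

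Gene families chosen after their values were seen are set beside the 48.9% of all genes that were higher at 4 days. Of 53 cytosolic ribosomal protein genes 42 were higher at 4 days, with a median of 0.054 against -0.0058 in the celastrol arrays. Of 86 genes with names of respiratory chain subunits 55 were higher, with a median of 0.027 against -0.024 in the celastrol arrays. Mitochondrial ribosomal protein genes had 42 of 77 higher (0.017 against -0.036). Small nucleolar and Cajal body RNAs, which include Scarna17, had 18 of 27 higher (0.021 against -0.089). Keratin genes had 10 of 28 higher (-0.056 against -0.032). Of 66 olfactory receptor genes, whose main site is the nose, 26 were higher and the median was -0.039 against -0.010 in the celastrol arrays. This family was dim, with a mean intensity of 7.47, and all genes of 7 to 7.5 had a vehicle median of -0.044. Its median is thus near that of other dim genes.

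**Figure D4:**
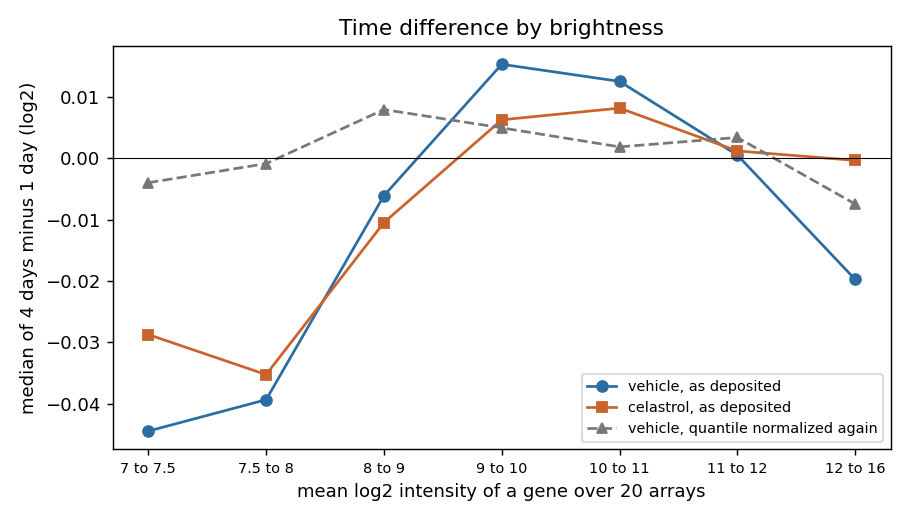
Median of 4 days minus 1 day (vertical axis, log2) for genes grouped by mean log2 intensity over the 20 arrays (horizontal axis), for vehicle and celastrol as deposited and for vehicle after another quantile normalization. Vehicle medians run from -0.044 in the dimmest band to 0.015 at 9 to 10 and back to -0.020 in the brightest, and after the further normalization the dimmest band is at -0.0040.

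Celastrol mice passed through the same interval and share no array with the vehicle comparison, though all arrays were normalized together. Across genes, which are not independent replicates, the vehicle and the celastrol difference between 4 days and 1 day had a Pearson correlation of 0.42 and a Spearman correlation of 0.43, and 65.8% of the 14129 genes had the same sign. Of the 1041 genes at an unadjusted p under 0.05 in vehicle, 902 (86.6%) had the same sign in celastrol. All 12 upward and 10 of 12 downward genes did. With a mean intensity of at least 9 the share was 88.3% of 591 genes. The interval in celastrol mice called 6 genes at an adjusted p of 0.05 (0.0425%).

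Values of the leading genes in both treatments are set side by side. Scarna17 differed by 0.34 in celastrol against 0.36 in vehicle. Uqcc2 differed by 0.32 against 0.25, Smdt1 by 0.18 against 0.20, and Ddx6 by -0.25 against -0.28. Ndufa9 was at -0.14 against -0.24, Havcr2 at -0.22 against -0.33 and Ywhah at -0.16 against -0.21. Cep135 was at 0.12 against 0.29, Prss35 at 0.12 against 0.45, Galns at 0.13 against 0.30 and Cyb5d1 at 0.12 against 0.25. Alox12b was at 0.060 against 0.23, Usf3 at 0.10 against 0.17 and Gtf2a1 at 0.090 against 0.15. Aqp11 was at 0.18 against 0.20 and Elob at 0.15 against 0.20. Nectin2 was at -0.064 against -0.30, Foxf1 at -0.088 against -0.28, Fam98c at -0.094 against -0.28 and Tmem114 at -0.15 against -0.31. Sfn was at 0.0012 against -0.27 and Myadml2 at 0.041 against -0.33, the 2 downward genes without a celastrol decrease.

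**Figure D5:**
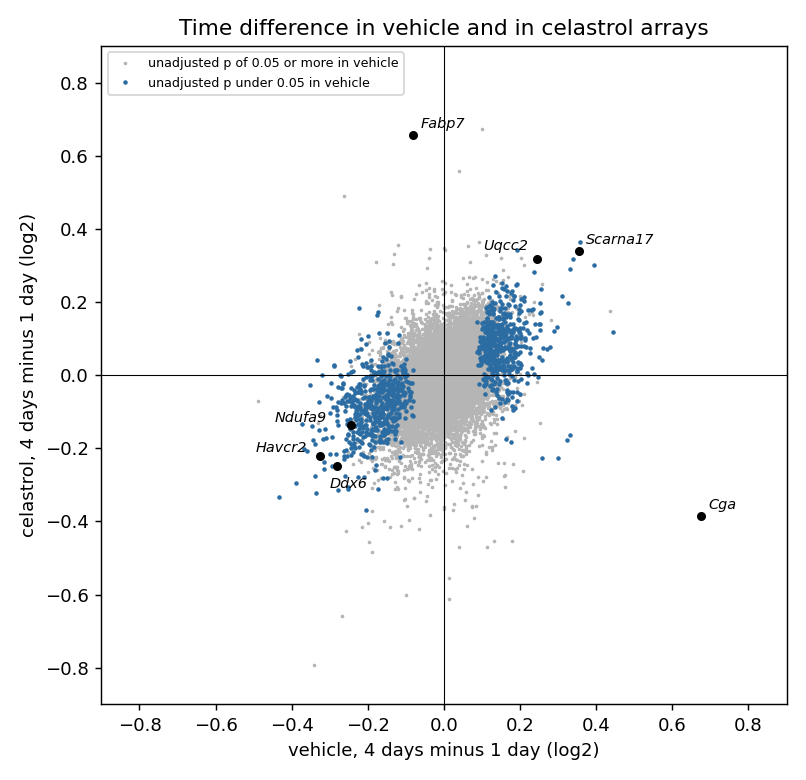
Difference between 4 days and 1 day (log2) in vehicle arrays (horizontal axis) and in celastrol arrays (vertical axis), one point for each of the 14129 genes, blue where the unadjusted p in vehicle is under 0.05 and black for named genes. Most blue points lie in the lower left and upper right of the plot, where 902 of 1041 genes have the same sign, and Fabp7 and Cga lie away from the rest.

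The average of the vehicle and celastrol differences, a contrast added after seeing the data, passed an adjusted p of 0.05 in 30 genes (0.212%). Of these, 18 were higher and 12 lower at 4 days, and 29 had the same sign in both treatments. Since the genes were called on the average of both differences, a shared sign largely comes with that choice and is no separate evidence. Scarna17 rose by 0.35 ± 0.044 (adjusted p = 0.0019) and Uqcc2 rose by 0.28 ± 0.037 (adjusted p = 0.0019) over both treatments. Rpl36, a large ribosomal subunit protein gene named after its values were seen, rose by 0.20 ± 0.030 (adjusted p = 0.0078). Havcr2 fell by 0.27 ± 0.040 (adjusted p = 0.0053), Ndufa9 fell by 0.19 ± 0.030 (adjusted p = 0.0087) and Ddx6 fell by 0.27 ± 0.043 (adjusted p = 0.0119). Scarna17, Uqcc2 and Rpl36 passed in each of 22 other settings, with adjusted p up to 0.0113, 0.0119 and 0.0308, and Havcr2 in each of 21. Ndufa9 passed in 21 of 22 (adjusted p up to 0.0536) and Ddx6 in 20 of 22 (up to 0.057).

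Further genes of the 30, named after their values were seen, included brain genes whose call was lost in more of the 22 other settings. Nptx1, a pentraxin that clusters glutamate receptors, rose by 0.16 (adjusted p = 0.0406) and passed in 13 of them. Bcan, brevican of the perineuronal matrix, rose by 0.16 (adjusted p = 0.0409) and passed in 12. C1ql2, a secreted synaptic organiser, fell by 0.23 (adjusted p = 0.0409) and passed in 13. The count of 30 moved with single arrays: leaving out the third 1 day vehicle array gave 119, leaving out the second gave 5, and the count lay between 6 and 67 with any other of the 13 arrays left out.

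The time difference itself was tested between vehicle and celastrol, and 1 of 14129 genes passed (0.00708%). Fabp7 encodes a lipid carrier made by astrocytes and neural progenitors in the brain. In vehicle mice it read 12.53, 12.61 and 12.72 at 1 day and 12.51, 12.61 and 12.50 at 4 days, overlapping groups with a difference of -0.080 (interval -0.23 to 0.070). In celastrol mice it read 12.13, 12.09, 11.96 and 12.02 at 1 day and 12.60, 12.78 and 12.73 at 4 days, groups that did not overlap, with a difference of 0.66. Vehicle minus celastrol was -0.74 ± 0.098 (adjusted p = 0.0063). All 4 celastrol arrays of 1 day lay below all 6 vehicle arrays.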

How the data were processed

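Hypothalamic RNA was amplified and biotin-labelled (Ambion WT Expression kit), per the labels' protocols. The deposited values are log2 intensities for 23492 probe sets, made by the authors with RMA per the submitters' processing notes (version and settings not given in the sources used here). RMA quantile normalizes arrays, so a shift shared by all genes is not visible. Of the probe sets, 20228 had 1 gene symbol in the platform annotation, 1399 several and 1865 none. The brightest stood for a gene (809 of 18704 genes had more than 1), and genes below the 25th percentile of mean intensity, log2 7.04, were left out, leaving 14129.

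Differences were tested, two-sided, with limma 3.58.1 in R 4.3.3, in 1 model with 6 group means over 20 arrays, moderated by eBayes (14 residual and 4.92 prior degrees of freedom) and adjusted by Benjamini-Hochberg over all genes tested. Every p in the text is limma's. The number of arrays limits the precision. The procedure was tested on simulated data with noise independent between genes and arrays. That test does not cover deviations shared by many genes of an array, as seen here. Promoters came from RefSeq tables, and positions are GRCm38.p6.

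Named were the 12 genes with the smallest unadjusted p in each direction, since none passed the threshold, up to 3 members of each of 34 lists, and 16 genes of feeding, stress and rhythm, 15 of them tested. Predicted genes were counted but not named. The groups, lists and rules were chosen with earlier results of these data known. Same-numbered replicates did not deviate together. Alternatives were other sets of arrays, a replicate block, centring, another quantile normalization, other filters, the mean of probe sets, array weights, an intensity trend and leaving out arrays.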

Additional observations from a re-analysis of the deposited data

Results flagged for a closer look

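Fabp7 was the gene whose difference between 4 days and 1 day itself differed between vehicle and celastrol arrays (limma interaction, adjusted p = 0.00631). The vehicle difference was -0.080, with 95% bounds of -0.23 and 0.070, and the celastrol difference was 0.66 ± 0.067 (SE). It passed in every alternative fit that could give the interaction, with adjusted p up to 0.0411 when 1 array was left out.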

How the results depend on the processing

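The count of 0 genes between the vehicle groups held with 9 or 6 vehicle arrays alone, the replicate block (lowest adjusted p 0.209), centring, another quantile normalization, either filter, the mean of probe sets, without the 2 arrays that stood apart, and with each array left out (lowest adjusted p 0.0644 to 0.374). It was 147 with array weights and 2, Scarna17 and Ndufa9, with an intensity trend. Numbers of replicates did not pair the vehicle arrays of 1 day with those of 4 days (correlations of deviations 0.061, -0.11 and 0.011). Pairing between other groups was not examined. The 1041 genes at unadjusted p under 0.05 became 2595 with array weights and 1725 without the 2 arrays that stood apart, and 705 to 1492 with 1 array left out. The higher and lower counts were 757 and 705 without a filter and 479 and 312 with a filter at the median.

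The 30 genes of the averaged difference became 112 with the replicate block, 180 after centring, 64 after another quantile normalization, 111 without a filter, 176 with a filter at the median, 938 with array weights, 160 with an intensity trend, 320 without the 2 arrays that stood apart, and 5 to 119 with 1 array left out. The cause was not tested. The share of same signs ran from 81.7% to 87.5% with 1 array left out and was 80.7% with array weights. The interaction called 1 gene in each alternative, 1 to 1 with 1 array left out.

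With 1 vehicle array of 1 or 4 days left out, 19 of 34 list medians took both signs, among them microglia (-0.0239 to 0.0511), immediate early genes (-0.0484 to 0.0131) and skeletal muscle (-0.132 to 0.00541), and 15 kept 1 sign. Signs of named genes also turned. Avp was 0.00416 after centring, 0.0042 after another quantile normalization and 0.0336 with array weights. Pomc was 0.0385 and Clic6 0.0656 with array weights. Without the 2 arrays that stood apart Npy was -0.0192, Oxt -0.0738, Lepr 0.0184 and Clic6 0.0774. With 1 array left out the ranges were -0.136 to 0.0784 for Avp, -0.193 to 0.0522 for Col1a1, -0.159 to 0.0133 for Emx1, -0.0918 to 0.0123 for Bcl11b and -0.0561 to 0.0571 for Cartpt. They were -0.216 to 0.0087 for Crh, -0.0321 to 0.107 for Npy, -0.0738 to 0.251 for Oxt, -0.144 to 0.0184 for Lepr, -0.304 to 0.0774 for Clic6, -0.0153 to 0.143 for Kcnj8, -0.00939 to 0.112 for Drd2 and -0.00681 to 0.113 for Fkbp5.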

Other observations

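Probe sets with several gene symbols or none entered no comparison above. Of 2204 such probe sets bright enough to be tested, 240 (10.9%) had an unadjusted p under 0.05 between 4 and 1 day of vehicle, and 0 passed an adjusted p of 0.05 when adjusted together with the 14129 genes (limma, lowest 0.0742).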
